A study of Mus musculus with 20 samples.

Results

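The genes Tgfb2, Smad3, Ptpn11, Spin1 and Dek, which the literature names as targets of the microRNA miR-489-3p, were followed across 20 RNA-seq libraries from the aortic endothelium of Apoe-/- mice. They were picked by symbol, 5 of the 32081 genes with a deposited expression value. All 5 were present among the 20442 genes of the variance-stabilized table and among the 16848 genes tested. Every mouse was a female of the B6.129P2-Apoetm1Unc/J strain, which lacks apolipoprotein E, was kept on regular chow and had 5/6 nephrectomy, the removal of most kidney tissue, at 9 weeks of age. A single retro-orbital injection followed 7 weeks after surgery, and the endothelium was collected 1 week after the injection. The groups of 4 mice received saline (Saline 1, 2, 9 and 24), 4 mg of high-density lipoprotein (HDL 3, 4, 11 and 23), HDL with LNA92a (LNA92a 5, 12, 17 and 18), HDL with LNA489 (LNA489 7, 13, 14 and 19) or HDL with both inhibitors (Dual 8, 10, 15 and 21). LNA92a and LNA489 are locked nucleic acid oligonucleotides against miR-92a-3p and miR-489-3p. Each was given at 20 mg/kg, which makes 40 mg/kg of oligonucleotide in the dual group. No group received an oligonucleotide without a microRNA target, so the presence of an oligonucleotide and its target cannot be told apart.

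A microRNA guides Argonaute proteins to messenger RNAs, mostly through pairing of its seed, bases 2 to 8, with the 3′ untranslated region (3′ UTR), and the bound messenger RNA is translated less and degraded faster. An inhibitor that binds the microRNA releases its targets, so the direct question for these genes is whether their RNA differed between mice given LNA489 and mice given HDL without it. TGF-beta 2, the ligand made from Tgfb2, acts through receptor kinases that phosphorylate SMAD3, and this pathway drives matrix synthesis and endothelial-to-mesenchymal transition in the vessel wall. The other 3 genes act elsewhere: Ptpn11 encodes the phosphatase SHP2, which passes growth factor signals to RAS and MAPK, Spin1 encodes the histone methyl-lysine reader spindlin 1, and Dek encodes a chromatin protein that binds DNA and histones.

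The microRNA is shown beside miR-425-5p, the other mature mouse microRNA with the same seed among 1738 RefSeq entries (GRCm38.p6). Capitals mark bases 2 to 8, and sequences read 5′ to 3′.
miR-489-3p: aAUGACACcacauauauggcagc
miR-425-5p: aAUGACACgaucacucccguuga

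The miR-489-3p sequence lies at chr6:3721922-3721944 on the minus strand, inside the calcitonin receptor gene Calcr. Calcr itself had 0 to 5 reads in a library, and no value for the mature microRNA was analysed here. The search used protein-coding transcripts with a complete end in the basic set of GENCODE M21 (GRCm38), for the 5 genes and all others. Their 3′ UTRs were searched on the sense strand for GTGTCAT, the match to bases 2 to 8. The longer GTGTCATA is the same match followed by the A opposite base 1 (8mer). The shorter TGTCAT (6mer), which lies within both, was searched as well. The windows below are shown because they separate the genes: Dek holds the longest match, Ptpn11 a match to bases 2 to 8 near the end of its 3′ UTR, and Smad3 and Spin1 only the 6mer. Capitals mark the matched bases.
Dek, chr13:47085324-47085350, minus strand: gttgtgttaactctaaGTGTCATAgaa
Dek, chr13:47085354-47085380, minus strand: ctgctttgccctcaaaGTGTCATcaat
Dek, chr13:47084813-47084839, minus strand: ttggcctttaagcaattTGTCATAaat
Ptpn11, chr5:121130801-121130827, minus strand: aggaacgtgtttttggGTGTCATcatt
Smad3, chr9:63649290-63649316, minus strand: cttggtgcagagcgctcTGTCATcttc
Spin1, chr13:51149146-51149172, plus strand: ggtgaaaacatcctagaTGTCATcaca

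In Dek the 6mer within the match to bases 2 to 8 begins at position 705 of a 3′ UTR of 1286 bases. The 6mer within the 8mer begins at position 735, and a 6mer followed by A at position 1246. In Ptpn11 the 6mer within the match begins at position 3358 of a 3′ UTR of 3635 bases, with a further 6mer at position 2330. The single Smad3 6mer begins at position 963 of a 3′ UTR of 3495 bases, and Spin1 has 3 6mers in 3385 bases. Tgfb2 has no 6mer in either of its searched 3′ UTRs of 2656 and 1230 bases. Of 20988 genes with a 3′ UTR in these transcripts, 34.7% hold the 6mer, 9.68% the match to bases 2 to 8 and 2.04% the 8mer. The median of the longest 3′ UTR per gene is 953 bases, and all 5 genes have a longer one. A match describes these letters only.

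**Figure D1:**
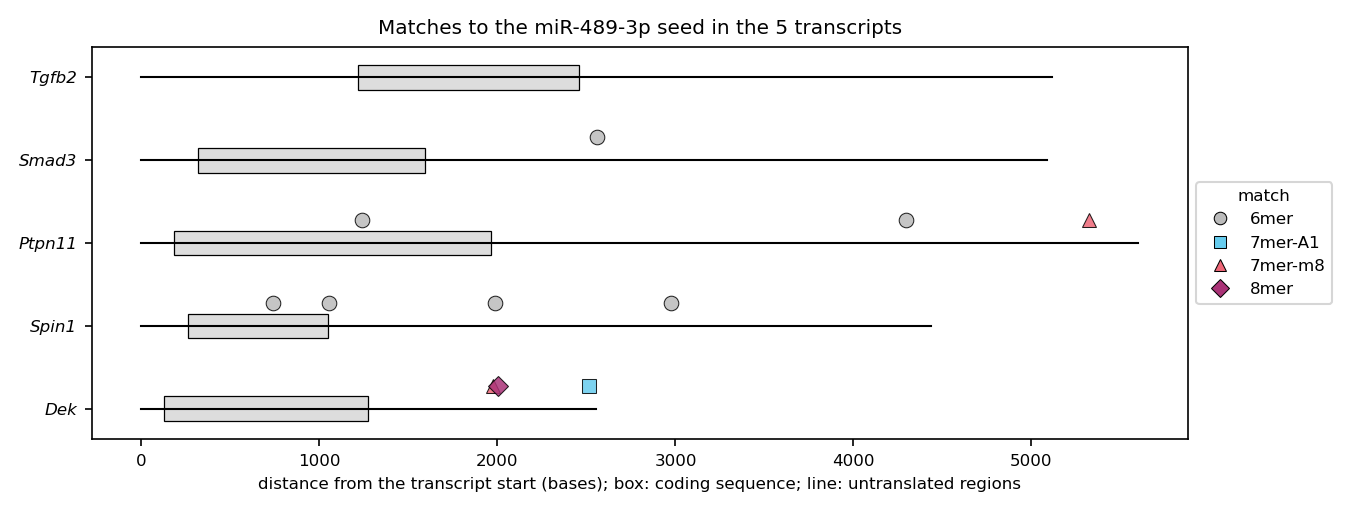
Matches to the miR-489-3p seed along the longest searched transcript of each gene. The x axis is the distance from the transcript start in bases, boxes are coding sequence and symbols are kinds of match: Dek carries the 8mer, Ptpn11 and Dek the match to bases 2 to 8, and Tgfb2 no match.

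Libraries held 11.6 to 21.4 M assigned reads, and 17378 to 23365 genes had at least 1 read. The labelled tissue varied in its markers: Pecam1, an endothelial adhesion protein, had 10.8 fragments per kilobase and M reads (FPKM) in the lowest library, HDL 4, and 1009 in the highest, HDL 23. Dcn, a fibroblast proteoglycan, had 67.9 to 2043 FPKM. In such bulk RNA, fewer cells of a type and less RNA per cell cannot be told apart. The ribosomal entry Rn18s-rs5 took 3.25% to 22.4% of reads, with 16.5% ± 7.16 in the LNA92a group and 5.44% ± 2.76 in the dual group (SD, n = 4), and FPKM is divided by all reads. On the log2(FPKM + 0.1) scale the median over all 16848 genes was 0.45 higher in the dual group than in the LNA92a group, against -0.02 on the variance-stabilized scale. Differences below are on the deposited variance-stabilized log2 scale unless FPKM is named. There, genes with 100 and 200 normalized reads have median values of 7.04 and 7.85, and genes with 1000 and 2000 have 9.98 and 10.96, so low genes are compressed.

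Across the 8 libraries with LNA489 and the 8 with HDL but no LNA489, none of the 5 genes passed the test. The difference, the mean of both groups with LNA489 minus the mean of both groups without it, was 0.38 ± 0.28 (SE) for Tgfb2, -0.17 ± 0.20 for Smad3, 0.04 ± 0.19 for Ptpn11, -0.10 ± 0.11 for Spin1 and -0.11 ± 0.14 for Dek. The 95% intervals ran from -0.20 to 0.97, -0.59 to 0.24, -0.36 to 0.45, -0.32 to 0.12 and -0.40 to 0.18, and each included 0. The adjusted p of limma was 1.00 for all 5. Single libraries moved these values: Tgfb2 was 0.19 ± 0.25 without LNA489 14, Smad3 -0.06 ± 0.19 without LNA92a 12 and -0.29 ± 0.19 without Dual 21, and Dek -0.00 ± 0.11 without HDL 11 and -0.17 ± 0.14 without HDL 23. Ptpn11 ran from -0.06 without LNA489 7 to 0.17 without HDL 4, and Spin1 from -0.14 without LNA92a 12 to -0.06 without Dual 10. In the same contrast limma called 0 of 16848 genes (0% at adjusted p under 0.05), with 445 (2.64%) at an unadjusted p under 0.05, none of them among the 5. Limma's voom fit of the recovered reads also called 0, with 459 at an unadjusted p under 0.05. Of the 5 genes, 2 had a positive difference, where 46.2% of all tested genes did, and their median was -0.10 against -0.02 over all genes. On log2(FPKM + 0.1) the signs of Smad3, Spin1 and Dek turned, to 0.038, 0.12 and 0.11, where the median of all genes was 0.19 and 75.1% were higher. Exact permutation within the 2 pairs of groups, 2-sided over 4900 arrangements, gave p = 0.290 for Tgfb2, 0.366 for Smad3, 0.824 for Ptpn11, 0.211 for Spin1 and 0.416 for Dek, where 0.000408 is the smallest p it allows. The upper end of the interval was 0.18 for Dek, the gene with the 8mer, and 0.97 for Tgfb2, which has no match.

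**Figure D2:**
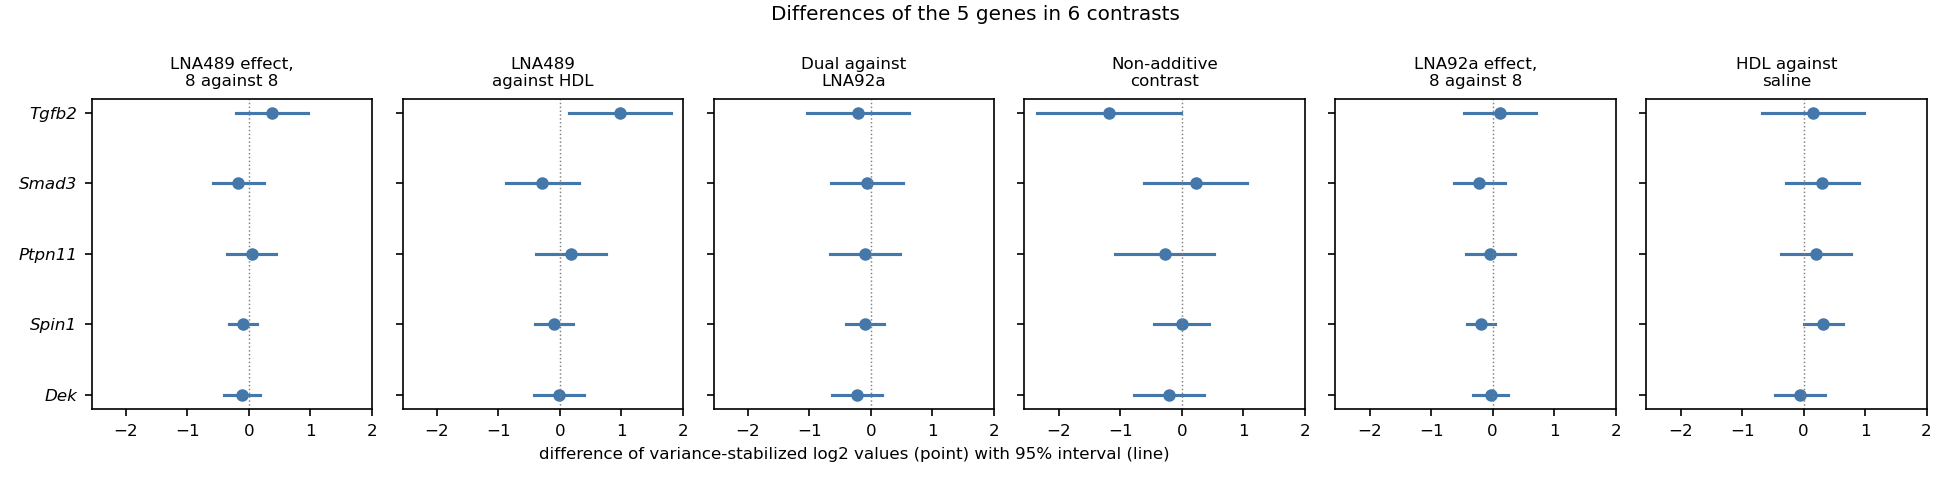
Differences of the 5 genes in 6 contrasts. The x axis is the difference of variance-stabilized log2 values, points are estimates and lines 95% intervals from limma: the intervals that leave out 0 are those of Tgfb2 in LNA489 against HDL and in the non-additive contrast, and of Spin1 in HDL against saline.

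Tgfb2 (ENSMUSG00000039239.14, chr1:186622792-186705989, minus strand), the ligand, was the weakest expressed of the 5. Its FPKM was 1.61, 1.42, 1.93 and 0.724 in Saline 1, 2, 9 and 24, and 1.80, 2.24, 0.770 and 1.82 in HDL 3, 4, 11 and 23. With LNA92a it was 2.10, 3.26, 1.68 and 1.78 in LNA92a 5, 12, 17 and 18. With LNA489 it was 2.81, 2.21, 9.39 and 2.17 in LNA489 7, 13, 14 and 19, and with both 1.71, 3.30, 3.62 and 1.97 in Dual 8, 10, 15 and 21. LNA489 14 stood far above the other 19 libraries, with 1085 reads where they had 53 to 413. The remaining LNA489 libraries lay around the highest HDL library, and the groups overlapped.

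The group means of Tgfb2 were 1.42 ± 0.508 FPKM with saline, 1.66 ± 0.624 with HDL, 2.21 ± 0.727 with LNA92a, 4.15 ± 3.51 with LNA489 and 2.65 ± 0.952 with both (SD, n = 4). On the variance-stabilized scale the order of the means from low to high was saline, HDL, dual, LNA92a and LNA489, and each neighbouring pair overlapped. LNA489 against HDL differed by 0.97 ± 0.40 (95% interval 0.14 to 1.80), with 4 of 4 LNA489 libraries above the HDL mean. Its unadjusted limma p was 0.0239 and its adjusted p 0.920, and exact permutation over 70 splits gave p = 0.0857, where 0.0286 is the smallest possible. Of the 5 genes 2 were higher, against 44.8% of all tested genes, and in 0 of 5 did the groups not overlap, against 1.54%. Limma called 0 genes (0%) here and voom 0 as well, with 638 (3.79%) and 676 at an unadjusted p under 0.05. Without LNA489 14 the Tgfb2 difference was 0.58 ± 0.36 (limma adjusted p = 0.989, unadjusted 0.127), and without HDL 11, the lowest HDL library, it was 0.67 ± 0.39 (limma adjusted p = 0.993, unadjusted 0.104).

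With LNA92a present in both groups, the difference of Tgfb2 had the other sign: dual against LNA92a was -0.21 ± 0.40 (limma adjusted p = 1.00), with 1 of 4 dual libraries above the LNA92a mean. None of the 5 genes was higher there, against 47.4% of all tested genes. These comparisons share no library. The contrast of one against the other was -1.18 ± 0.56 (95% interval -2.35 to -0.01, limma adjusted p = 0.930, unadjusted 0.0488). In it limma and voom called 0 genes, with 530 (3.15%) and 531 at an unadjusted p under 0.05. Leaving out 1 library at a time, it ran from -1.40 to -0.79, with unadjusted limma p from 0.0230 to 0.129. It was -0.79 ± 0.49 without LNA489 14 and -0.88 ± 0.53 without HDL 11. HDL against saline gave 0.16 ± 0.40 and the LNA92a effect over the same 16 libraries 0.12 ± 0.28 for this gene.

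**Figure D3:**
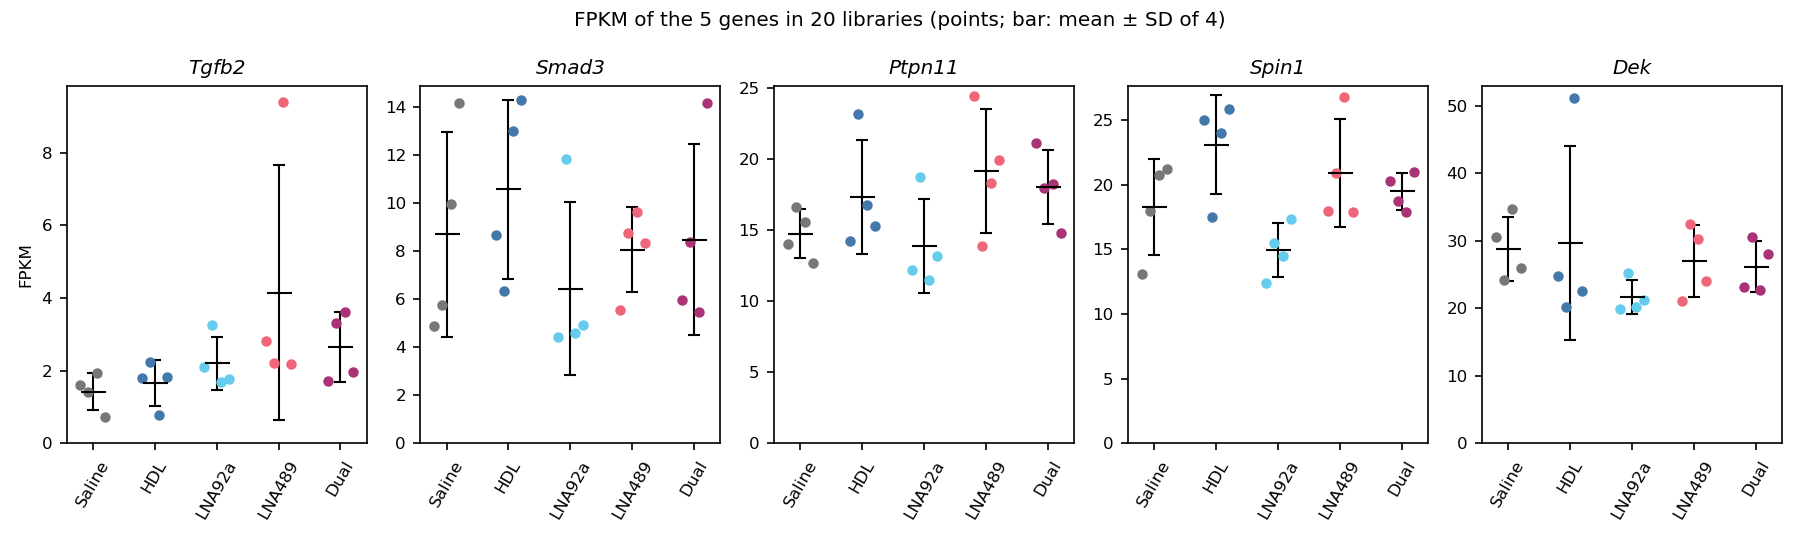
FPKM of the 5 genes in every library. Each panel is 1 gene, the x axis gives the treatment group, points are the 4 libraries and bars the mean ± SD: LNA489 14 stands at 9.39 FPKM of Tgfb2 and HDL 11 at 51.1 FPKM of Dek, and all 5 genes overlap between LNA489 and HDL.

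The snoRNA Gm26169 and the antisense gene Gm29491 overlap Tgfb2 on the opposite strand at means of 0.234 and 0.130 FPKM, and the strand of counting was not given in the sources used here. Tgfb2 moved with fibroblast markers over the 20 libraries, with r = 0.71 between its value and the mean of 10 fibroblast genes (permutation p = 0.00024, adjusted over 25 relations 0.002) and rho = 0.79 (adjusted 0.000417). Without Saline 9 and Dual 21, the libraries farthest from the median of the list, r was 0.75, and with group means removed 0.62. With the adipocyte list r was 0.57 (permutation p = 0.00645, adjusted 0.0403; rho = 0.66, adjusted 0.0153), and 0.61 without the same 2 libraries. On log2(FPKM + 0.1) the adjusted p of both was above 0.05 (0.0723 for fibroblast and 0.185 for adipocyte genes). LNA489 14 had the highest summed fibroblast level, 3044 FPKM, in a range of 189 to 3044 with LNA489, 192 to 2586 in HDL libraries without it and 121 to 3044 over all, and HDL 11 had 279. On the list mean used for these relations LNA489 14 was not the highest, at 12.54 against 13.00 in LNA92a 12, which had 3.26 FPKM of Tgfb2. All 10 fibroblast genes had a value above 0 in every library, and 9 of 10 had a positive LNA489 difference with none at an unadjusted p under 0.05. With the endothelial and adipocyte list means as covariates, LNA489 against HDL was 0.78 ± 0.35 for Tgfb2. The fibroblast list was not among these covariates, and its part in this difference was not tested.

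**Figure D4:**
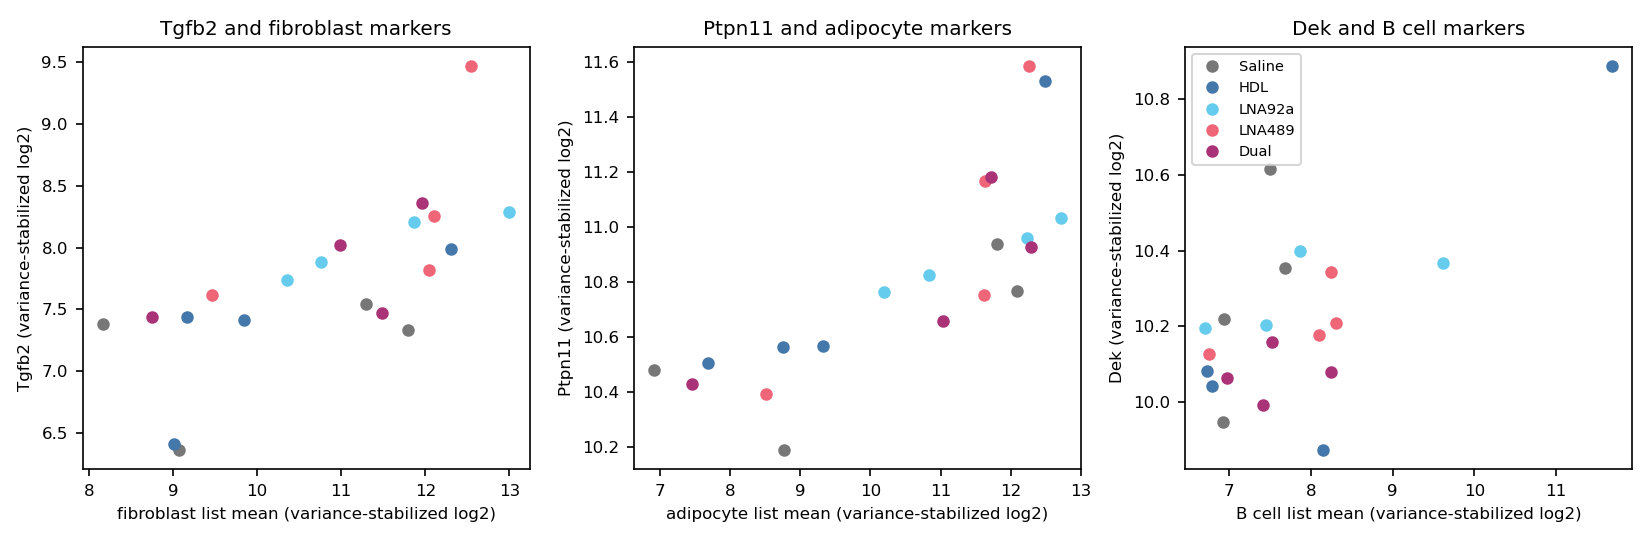
Tgfb2, Ptpn11 and Dek against the mean of a marker list in 20 libraries. Both axes are variance-stabilized log2 values and points are libraries coloured by group: Tgfb2 rises with fibroblast markers (r = 0.71) and Ptpn11 with adipocyte markers (r = 0.79), while Dek and B cell markers are both highest in HDL 11.

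Smad3 (ENSMUSG00000032402.12, chr9:63646767-63757994, minus strand), the transcription factor that TGF-beta receptors activate, varied more within groups than between them. Its FPKM was 4.90, 5.73, 9.96 and 14.2 in Saline 1, 2, 9 and 24, and 8.66, 6.32, 13.0 and 14.3 in HDL 3, 4, 11 and 23. It was 4.41, 11.8, 4.60 and 4.91 in LNA92a 5, 12, 17 and 18 and 5.54, 8.76, 9.61 and 8.32 in LNA489 7, 13, 14 and 19. The dual libraries 8, 10, 15 and 21 had 5.95, 8.37, 5.45 and 14.1. HDL 23 and Saline 24 were the highest and LNA92a 5 the lowest, so every group overlapped every other.

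The variance-stabilized means of Smad3 ran from 9.24 ± 0.49 in the dual group over 9.30 ± 0.45 with LNA92a, 9.32 ± 0.46 with saline and 9.34 ± 0.19 with LNA489 to 9.63 ± 0.35 with HDL (SD, n = 4). LNA489 against HDL was -0.28 ± 0.28 (exact permutation p = 0.257), with 0 of 4 LNA489 libraries above the HDL mean. Dual against LNA92a was -0.06 ± 0.28 (exact permutation p = 0.771) and 0.16 without LNA92a 12. HDL against saline was 0.31 ± 0.28 and the LNA92a effect -0.22 ± 0.20. None of these differences exceeded the spread between libraries. None of its 5 relations with marker lists passed an adjusted p of 0.05, and the largest was with smooth muscle genes (r = -0.51, permutation p = 0.0209, adjusted 0.0871; rho = -0.49, adjusted 0.0983; r = -0.35 without Saline 1 and Dual 21).

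Ptpn11 (ENSMUSG00000043733.14, chr5:121130533-121191397, minus strand), which encodes SHP2, measured 14.0, 16.6, 15.6 and 12.7 FPKM in Saline 1, 2, 9 and 24 and 14.2, 23.2, 16.8 and 15.3 FPKM in HDL 3, 4, 11 and 23. It measured 12.2, 18.7, 11.5 and 13.2 FPKM in LNA92a 5, 12, 17 and 18, 24.5, 13.9, 18.3 and 20.0 FPKM in LNA489 7, 13, 14 and 19, and 21.1, 18.0, 18.3 and 14.8 FPKM in Dual 8, 10, 15 and 21. LNA489 7 and HDL 4 were the highest libraries, and both groups with LNA489 overlapped the others. From low to high the variance-stabilized means were 10.59 ± 0.33 with saline, 10.79 ± 0.49 with HDL, 10.80 ± 0.33 in the dual group, 10.89 ± 0.12 with LNA92a and 10.97 ± 0.52 with LNA489, and neighbours overlapped. LNA489 against HDL was 0.18 ± 0.27 (exact permutation p = 0.629) and dual against LNA92a -0.10 ± 0.27 (exact permutation p = 0.600). HDL against saline was 0.20 ± 0.27, and the LNA92a effect -0.04 ± 0.19.

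The level of Ptpn11 moved with the adipocyte and fibroblast lists. With 10 adipocyte genes r was 0.79 (permutation p = 3e-05, adjusted 0.000625) and rho 0.86 (adjusted 0.00025), and with 10 fibroblast genes r was 0.79 (permutation p = 5e-05, adjusted 0.000625) and rho 0.83 (adjusted 0.00025). Both r were 0.78 without Saline 9 and Dual 21, the libraries farthest from the median of either list, and 0.80 and 0.78 with group means removed. On log2(FPKM + 0.1) r was 0.49 and 0.59 with adjusted p of 0.103 and 0.0843. Summed adipocyte markers ranged from 77.2 to 2760 FPKM with LNA489 and from 84.1 to 3522 FPKM in HDL libraries without it, and 1 of the 10, Lep, was at 0 in a library. With the endothelial and adipocyte means as covariates, the LNA489 effect on Ptpn11 was -0.00 ± 0.13. Gm42930 lies within Ptpn11 on the same strand, at a mean of 1.06 FPKM.

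Spin1 (ENSMUSG00000021395.10, chr13:51100880-51152546, plus strand), the histone reader, measured 13.1, 18.0, 20.7 and 21.2 FPKM in Saline 1, 2, 9 and 24 and 25.01, 17.5, 23.9 and 25.9 FPKM in HDL 3, 4, 11 and 23. It measured 12.4, 15.5, 14.5 and 17.4 FPKM in LNA92a 5, 12, 17 and 18, 18.0, 20.9, 26.8 and 17.9 FPKM in LNA489 7, 13, 14 and 19, and 20.3, 18.7, 17.9 and 21.0 FPKM in Dual 8, 10, 15 and 21. The LNA92a libraries lay below all dual libraries in FPKM, but not on the variance-stabilized scale. There the means were 10.14 ± 0.16 with saline, 10.17 ± 0.16 in the dual group, 10.27 ± 0.19 with LNA92a, 10.36 ± 0.14 with LNA489 and 10.46 ± 0.12 with HDL.

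Spin1 differed by -0.10 ± 0.15 both between LNA489 and HDL (exact permutation p = 0.314) and between dual and LNA92a (exact permutation p = 0.429). In log2(FPKM + 0.1) the last difference was 0.39 ± 0.20, where all genes had a median of 0.45. The largest value of this gene was in HDL against saline, at 0.32 ± 0.15 (95% interval 0.01 to 0.64). The 4 HDL libraries, 10.33 to 10.57, lay above the 4 saline libraries, 9.93 to 10.31, without overlap, as was so for 164 of 16848 genes (0.973%), and exact permutation gave its smallest possible p of 0.0286. The unadjusted limma p was 0.0441 and the adjusted p 1.00. Neither limma nor voom called a gene between HDL and saline (0 and 0), and 281 (1.67%) and 308 genes had an unadjusted p under 0.05. Leaving out a library gave Spin1 values of 0.25 (without Saline 1) to 0.38 here. The LNA92a effect on Spin1 was -0.19 ± 0.11, with 1 of 8 LNA92a libraries above the mean without it (exact permutation p = 0.0245, limma unadjusted p = 0.0902, adjusted 1.00). Limma and voom called 0 genes for LNA92a, with 331 (1.96%) and 364 at an unadjusted p under 0.05.

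Dek (ENSMUSG00000021377.14, chr13:47084775-47106201, minus strand), the chromatin protein gene with the 8mer, was the most abundant of the 5 per length. Its FPKM was 30.5, 24.2, 34.7 and 25.9 in Saline 1, 2, 9 and 24, and 24.8, 20.2, 51.1 and 22.6 in HDL 3, 4, 11 and 23. It was 19.9, 25.3, 20.2 and 21.3 in LNA92a 5, 12, 17 and 18, 21.2, 32.5, 30.2 and 24.0 in LNA489 7, 13, 14 and 19, and 23.2, 30.6, 22.8 and 28.01 in Dual 8, 10, 15 and 21. HDL 11 was far above the rest, and the other libraries lay between 19.9 and 34.7.

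LNA489 against HDL was -0.01 ± 0.19 for Dek (exact permutation p = 1.00). Without HDL 11, the highest library, it was 0.21 ± 0.16 (limma adjusted p = 0.993, unadjusted 0.185). Exact permutation then gave p = 0.0286, the smallest possible for the libraries that remained. That p cannot be read as a test, because the library left out was the one with the highest Dek value. The share of all genes that separate after such a removal was not computed. Without HDL 23 the difference was -0.12. In the other comparison the 4 dual libraries, 9.99 to 10.16, lay below the 4 LNA92a libraries, 10.20 to 10.40, without overlap, as was so for 480 genes (2.85%). That difference was -0.22 ± 0.19 (exact permutation p = 0.0286, the smallest possible, limma adjusted p = 1.00, unadjusted 0.277), with 0 of 4 dual libraries above the LNA92a mean. It was 0.27 ± 0.25 on log2(FPKM + 0.1) and -0.19 ± 0.19 once each library was centred on its median. Limma and voom each called 0 genes there, with 415 (2.46%) and 311 at an unadjusted p under 0.05. Leaving out 1 library at a time kept it between -0.25 and -0.18.

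The remaining contrasts of Dek were small, -0.06 ± 0.19 for HDL against saline and -0.04 ± 0.14 for LNA92a. The variance-stabilized means ran from 10.07 ± 0.07 in the dual group over 10.21 ± 0.09 with LNA489, 10.22 ± 0.45 with HDL and 10.28 ± 0.28 with saline to 10.29 ± 0.11 with LNA92a, and neighbours overlapped. HDL 11 also had the highest B cell list mean, 11.68 where the median library had 7.51, and 903 FPKM of summed B cell markers where all other libraries had at most 122. In a set of 35 relations added after the data were seen, Dek and the B cell list had r = 0.67 (permutation p = 0.00561, adjusted 0.0655) and rho = 0.44 (adjusted 0.313). Without HDL 11 and LNA92a 17 r was 0.21, so the relation rests on those libraries. In the same set Dek had r = -0.64 with neuron and Schwann cell genes (permutation p = 0.00551, adjusted 0.0655), and -0.23 without Saline 9 and HDL 11. With T and NK cell genes r was 0.51 (permutation p = 0.0232, adjusted 0.137), and 0.29 without HDL 4 and HDL 11. The smallest p of the set was that of Ptpn11 with T and NK cell genes (r = -0.65, permutation p = 0.00188, adjusted 0.0655). Kdm1b, on the opposite strand at a mean of 4.36 FPKM, ends at position 47085279 inside the last exon of Dek and covers the 6mer followed by A but neither of the longer matches.

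No member followed another closely. The largest of 10 relations among them, also added after the data were seen, was between Tgfb2 and Ptpn11 (r = 0.47, permutation p = 0.0355, adjusted 0.280; rho = 0.55, adjusted 0.136; r = 0.53 without Saline 24 and LNA489 14). Among 14450 other genes the most alike to Tgfb2 over the 20 libraries were Gcnt2, Ston2 and Ptprf (r = 0.88, 0.88 and 0.87), and to Smad3 Stat2, Snx18 and Srcap (0.82, 0.79 and 0.78). Ptpn11 was closest to Afg3l2, Bcl2l13 and Nampt (0.93, 0.92 and 0.92) and had 666 genes with r above 0.8, against 32 for Tgfb2, 14 for Dek, 1 for Smad3 and 0 for Spin1. Spin1 was closest to Zfp788, Phlpp2 and Anapc4 (0.76, 0.75 and 0.75) and Dek to Slc28a2, Jak1 and Ralgps2 (0.88, 0.87 and 0.85). These coefficients share the mixture of cells and the normalization of the same libraries.

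All genes with a seed match were then set beside the 5. Of 1395 tested genes with the match to bases 2 to 8 in a 3′ UTR, 49.2% had a positive LNA489 difference and the median was -0.00. Of the 288 with the 8mer 53.1% did, with a median of 0.02. Of 11546 with a 3′ UTR but no match to bases 2 to 8, 47.6% did, with a median of -0.01. The 11546 include genes with a shorter match, Smad3 and Spin1 among them. Genes without any match were not tested as a set. None of these sets held a called gene. An unadjusted p under 0.05 was found for 16 higher and 13 lower of the 1395, against 153 and 124 of the 11546. When LNA489 was added to LNA92a, 44.9% of the 1395 and 45.8% of the 288 were higher, against 44.9% of the 11546. Dek (8mer) and Ptpn11 (match to bases 2 to 8) lay at -0.11 and 0.04 in distributions centred close to 0.

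**Figure D5:**
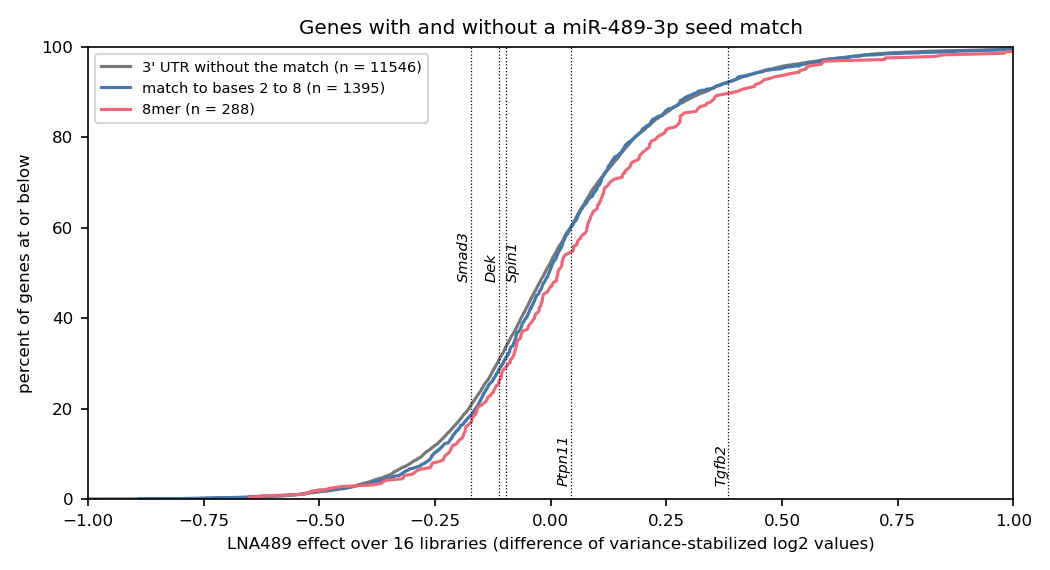
Cumulative share of tested genes by LNA489 difference. The x axis is the difference of variance-stabilized log2 values and the y axis the percent of genes at or below it. Lines are genes without the match to bases 2 to 8 (a shorter match may be present), with this match and with the 8mer. Dotted lines are the 5 genes: the lines of the gene sets lie close together and Tgfb2, which has no match of any length searched, lies farthest right at 0.38.

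Around Tgfb2, 12 of 13 ligand and latency genes were tested, and 8 were higher with LNA489 and 4 lower, with a median of 0.02 and none called. Beside Tgfb2 the smallest unadjusted p were those of Itgav (0.26 ± 0.16), the integrin subunit that activates latent TGF-beta, Nrros (0.26 ± 0.34) and Lrrc32 (-0.67 ± 0.64), which hold the latent ligand. Of 10 receptor genes 3 were higher and 7 lower, led by Acvr2b (-0.44 ± 0.28), Tgfbr1 (0.53 ± 0.34) and Acvr1 (-0.15 ± 0.39). Of 11 tested SMAD proteins and partners, Smad3 included, 3 were higher and 8 lower, with Smad4 at -0.19 ± 0.11, Crebbp at -0.22 ± 0.14 and Sp1 at -0.12 ± 0.11. Of 12 tested inhibitors 3 were higher and 9 lower, with a median of -0.19 against -0.02 over all genes, among them Smurf2 (-0.24 ± 0.15), Ski (-0.31 ± 0.23) and Skil (-0.41 ± 0.31). Among 16 tested target genes of the pathway 9 were higher and 7 lower. Of these 16, 11 were higher in LNA489 against HDL and 5 in dual against LNA92a. Zeb2, a transcription factor of mesenchymal transition that macrophages also express, was the only gene of these 10 lists with an unadjusted p under 0.05 in the LNA489 effect (0.58 ± 0.25, limma adjusted p = 1.00, unadjusted 0.0344). Tgfbi and Col1a1 were at 0.45 ± 0.44 and 0.54 ± 0.65. No gene of the TGF-beta lists was called.

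Around Ptpn11, 12 of 21 genes of the SHP2 and RAS-MAPK list were higher and 9 lower, with Nf1 at 0.17 ± 0.12. Of 14 tested inhibitors and readouts 7 were higher and 7 lower, with Spry2 at -0.35 ± 0.27, Ccnd1 at -0.15 ± 0.22 and Phlda1 at 0.25 ± 0.39. The 2 comparisons behind this effect differed: 11 of the 14 were higher in LNA489 against HDL and 1 of the 14 in dual against LNA92a. Of all tested genes 44.8% and 47.4% were higher there. Around Spin1, 4 of 11 tested family and Wnt genes were higher and 7 lower, with Tcf7l1 at -0.40 ± 0.27, Spin4 at -0.41 ± 0.30 and Gsk3b at 0.11 ± 0.11. Around Dek, 4 of 19 histone chaperones and partners were higher and 15 lower, with a median of -0.11, among them Ssrp1 (-0.20 ± 0.13), Asf1a (-0.24 ± 0.16) and Nasp (-0.24 ± 0.18). The microRNA machinery had 6 of 13 tested genes higher, with Dicer1 at -0.24 ± 0.15, Tnrc6a at -0.21 ± 0.16 and Tnrc6c at -0.18 ± 0.20. No gene of these 5 lists had an unadjusted p under 0.05 in the LNA489 effect.

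None of the 12 cell type lists passed an adjusted p of 0.05 between libraries with and without LNA489. The macrophage list had the smallest p, with a difference of its mean of 0.74 (exact permutation p = 0.0265, adjusted over the 12 lists 0.318), and 9 of 10 of its genes were higher and 7 had an unadjusted p under 0.05. Summed macrophage markers ranged from 1072 to 10623 FPKM with LNA489 and from 600.4 to 3053 FPKM in HDL libraries without it, and none of the 10 was at 0 in any library. The adrenal cortex list had a difference of 0.73 (exact permutation p = 0.744, adjusted 0.926), with 1582 FPKM of summed markers in Dual 10 and 1885 FPKM in Saline 2. The r of the 5 genes with the macrophage list lay between -0.39 (Spin1) and 0.09 (Tgfb2), and none passed an adjusted p of 0.05. The part of the macrophage list in the LNA489 differences of the 5 genes was not tested. Over all genes the smallest unadjusted p in the LNA489 effect belonged to Gm44418, Epb41l3 and Prkar1b (0.80 ± 0.19, 1.13 ± 0.32 and 0.73 ± 0.21) and to AF357399, Gm25492 and Rflnb (-0.88 ± 0.19, -0.98 ± 0.23 and -0.74 ± 0.19), each with an adjusted limma p of 1.00.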

How the data were processed

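The authors deposited variance-stabilized log2 values (20442 genes) and FPKM values (32081 genes). DESeq2 1.18.1, featureCounts 1.15.29, STAR 2.5.3a, cutadapt 1.16, FastQC and the build GRCm38.p5 are named, without roles, per the submitters' processing notes. The annotation release and the strand setting of the counting: not given in the sources used here. Per the labels, replicates are separate mice. Whole reads were recovered from FPKM and gene length, with 100% of values within 0.1 of a whole number in genes of up to 3000 bases and 1000 reads.

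Genes with a mean FPKM of at least 0.5 were fitted with limma 3.58.1 (R 4.3.3) on the variance-stabilized values, with 5 group means over 20 libraries, a mean trend and Benjamini-Hochberg adjustment over 16848 genes (threshold 0.05). The models were tested on simulated data. Single genes had 2-sided exact permutation tests, and correlations 100000 permutations. Alternatives were voom on the recovered reads, FPKM scales, filters, library weights, covariates and leaving out each library. The 5 genes and all lists were chosen with earlier results of these data known. Named were the 5 genes, Calcr, the 3 genes of smallest p per pathway list and per direction over all genes, the 3 most correlated genes per member, and Pecam1, Dcn, Myh11, Adgre1 and Adipoq as markers, and 2 genes that this rule names are not reported here. Of the gene identifiers, 31903 matched GENCODE M21, the source of coordinates and transcripts. MicroRNAs come from RefSeq (GRCm38.p6).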

Additional observations from a re-analysis of the deposited data

Results flagged for a closer look

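The LNA489 difference of Tgfb2 was 0.97 without LNA92a and -0.21 with it, and the contrast of these was -1.18 (limma adjusted p = 0.930, unadjusted 0.0488, 16 libraries). The adjusted value does not pass, and the estimate was -0.79 without LNA489 14, the library with 9.39 FPKM of Tgfb2 and 3044 FPKM of summed fibroblast markers. On the fibroblast list mean that library, at 12.54, was below LNA92a 12, at 13.00. The part of the fibroblast markers in this contrast was not tested.

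In 2 of 25 sets of 4 libraries, 1 library stood apart from the other 3 by Dixon's ratio, and chance alone sets aside about 1 in 20. LNA92a 12 was the highest for Smad3 in its group, at 9.96 on the variance-stabilized scale (11.8 FPKM), and also had the highest fibroblast and adipocyte list means of all libraries. Over the 20 libraries, though, Smad3 had negative r with these lists, -0.39 and -0.48 (adjusted permutation p = 0.2045 and 0.1143). Why this library stood apart was not tested. HDL 4 was the highest for Ptpn11 among the HDL libraries, at 11.53 (23.2 FPKM), and had the lowest endothelial list mean of all libraries.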

How the results depend on the processing

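The 5 genes had 53 to 2876 reads per library, the fewest in Tgfb2, and counting error was not separated from the spread between mice. No paired analysis was possible because no animal number occurs in 2 groups. No alternative called any of the 5 genes in any contrast, and the voom fit kept the sign of all 5 in all 6 contrasts. Counts of genes called stayed at 0 in every contrast and setting except the dual group against LNA92a without a library, where they ran from 0 to 1 (1 without LNA92a 12). Counts at an unadjusted p under 0.05 moved more: 445 genes in the LNA489 effect against 831 on log2(FPKM + 0.1), 1404 with library weights and 1015 with covariates, 638 against 3169 with library weights for LNA489 against HDL, and 415 against 1931 on log2(FPKM + 0.1) for dual against LNA92a.

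Scales divided by all reads turned signs. On log2(FPKM + 0.1), the LNA489 effect was 0.038 for Smad3, 0.12 for Spin1 and 0.11 for Dek, also in the permutation tests, where the median of all genes was 0.19. On this scale it was 0.075 for Acvr1, 0.026 for Smad4, 0.0032 for Crebbp, 0.10 for Sp1, 0.040 for Tnrc6c, 0.051 for Ccnd1, 0.013 for Ssrp1 and 0.0087 for Tnrc6a. Dual against LNA92a was 0.23 for Tgfb2, 0.42 for Smad3, 0.39 for Ptpn11, 0.39 for Spin1 and 0.27 for Dek. The non-additive contrast was 0.25 for Ptpn11, 0.53 for Spin1 and 0.32 for Dek. Marker means turned to 0.10 (endothelial) and 0.15 (striated muscle). With a pseudocount of 1 the LNA489 effect was 0.026 for Smad3, 0.11 for Spin1, 0.10 for Dek, 0.041 for Acvr1, 0.038 for Ccnd1, 0.025 for Smad4, 0.094 for Sp1, 0.029 for Tnrc6c and 0.0099 for Ssrp1. Dual against LNA92a was then 0.18 (Tgfb2) and 0.37 (Smad3, Ptpn11, Spin1) and 0.26 (Dek), the non-additive contrast 0.24 (Ptpn11), 0.51 (Spin1) and 0.31 (Dek), and the LNA92a effect on Tgfb2 -0.026. Centring each library on its median turned 2 values, Dek in LNA489 against HDL (0.0076) and Spin1 in the non-additive contrast (0.017).

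With library weights the sign turned for Ccnd1 (0.00081), for Dek in LNA489 against HDL (0.19), for Spin1 in the non-additive contrast (0.043) and for Ptpn11 (0.060) and Dek (0.080) in the LNA92a effect. With the endothelial and adipocyte covariates it turned for Ptpn11 in the LNA489 effect (-0.0014), LNA489 against HDL (-0.042), dual against LNA92a (0.039) and the non-additive contrast (0.081), and for Dek in LNA489 against HDL (0.022) and the LNA92a effect (0.058). The cause was not tested.

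Relations with marker lists on log2(FPKM + 0.1) no longer passed for Tgfb2 with fibroblast (r = 0.61) and adipocyte genes (0.43) and for Ptpn11 with the same (0.59 and 0.49). The sign turned for macrophage genes with Smad3 (0.21), Ptpn11 (0.14), Spin1 (0.26) and Dek (0.24), for smooth muscle genes with Ptpn11 (-0.025) and Dek (-0.079), and for endothelial genes with Dek (0.060). Without the 2 farthest libraries Tgfb2 with macrophage genes was -0.15 and Dek with smooth muscle genes -0.27, and the last was -0.026 with group means removed.

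Leaving out 1 library at a time, the LNA489 effect ran from 0.19 to 0.50 for Tgfb2, -0.29 to -0.06 for Smad3, -0.14 to -0.06 for Spin1 and -0.17 to -0.0011 for Dek. Other ranges crossed 0. For Ptpn11 they were -0.058 to 0.17 (LNA489 effect), -0.020 to 0.43 (LNA489 against HDL), -0.22 to 0.027 (dual against LNA92a), -0.13 to 0.087 (LNA92a effect) and -0.049 to 0.31 (HDL against saline). For Dek they were -0.12 to 0.21 (LNA489 against HDL), -0.093 to 0.075 (LNA92a effect) and -0.28 to 0.053 (HDL against saline). For Smad3 they were -0.29 to 0.16 (dual against LNA92a) and -0.0094 to 0.44 (non-additive), for Spin1 -0.084 to 0.065 (non-additive), for Tgfb2 -0.025 to 0.32 (LNA92a effect) and -0.11 to 0.46 (HDL against saline), and for Acvr1 -0.36 to 0.061. Dek in dual against LNA92a stayed between -0.25 and -0.18.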
